A study of Mus musculus with 9 samples.

Results

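Plasminogen activators and serpins were followed as 5 named genes, Plau, Plat, Plaur, Serpine2 and Serpinf1, out of the 40879 gene symbols counted in each library. All 5 symbols were found, and all 5 passed the filter on low counts. RNA came from engineered 3D muscle made with C2C12, a wild-type mouse myoblast line, held in matrix prepared from muscle tissue, and was sequenced from the 3′ end of transcripts. Every construct spent 2 days in growth medium and 10 days in differentiation medium with 10% equine serum. The 9 libraries form 3 groups of 3: normal constructs without irradiation, irradiated constructs given a single 20 Gy X-ray dose to induce senescence, and cocultured constructs, themselves without irradiation, each grown beside an irradiated construct. The series text counts fewer irradiated and normal samples than the labels, and all 9 labelled libraries were used. A single cell line limits all groups as a model. Dishes held a pair of constructs each, and which libraries came from a common dish is not labelled; p-values measure only the spread between these samples.

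Plasminogen activators are serine proteases that cut the zymogen plasminogen into plasmin, a broad protease of fibrin and matrix. Urokinase, encoded by Plau, acts mainly at the cell surface, where its receptor, the lipid-anchored protein encoded by Plaur, holds it; the tissue-type activator, encoded by Plat, is best known for its action on fibrin. Serpins are inhibitors that trap such proteases by a change of shape after being cut. Protease nexin-1, encoded by Serpine2, inhibits thrombin and both activators, whereas pigment epithelium-derived factor, encoded by Serpinf1, has the serpin fold but no known protease target and is known as a secreted antiangiogenic protein. In muscle, urokinase activity is known for its part in regeneration after injury, and several of these secreted proteins are counted among the factors that senescent cells release.

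The sequences before the transcription starts show how differently the 2 serpins and the receptor begin. RefSeq promoters of build GRCm38.p6 matched 3 of the 5 members, Serpine2, Plaur and Serpinf1, and each is given as the 250 bases before the start, 5′ to 3′ on the gene's strand. Capitals mark matches to the AP-1 motif TGANTCA and to the GC box GGGCGG, searched on both strands with overlapping matches counted.
Serpine2, chr1:79858666-79858915, minus strand: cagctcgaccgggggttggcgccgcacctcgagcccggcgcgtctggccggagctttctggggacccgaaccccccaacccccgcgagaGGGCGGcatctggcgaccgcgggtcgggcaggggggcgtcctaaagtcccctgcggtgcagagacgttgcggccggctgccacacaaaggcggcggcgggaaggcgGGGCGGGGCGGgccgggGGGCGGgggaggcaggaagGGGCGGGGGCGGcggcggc
Plaur, chr7:24462233-24462482, plus strand: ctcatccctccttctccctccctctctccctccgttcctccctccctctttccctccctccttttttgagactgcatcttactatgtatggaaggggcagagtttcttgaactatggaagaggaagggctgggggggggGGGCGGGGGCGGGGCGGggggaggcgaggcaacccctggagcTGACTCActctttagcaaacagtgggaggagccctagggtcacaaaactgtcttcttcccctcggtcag
Serpinf1, chr11:75422624-75422873, minus strand: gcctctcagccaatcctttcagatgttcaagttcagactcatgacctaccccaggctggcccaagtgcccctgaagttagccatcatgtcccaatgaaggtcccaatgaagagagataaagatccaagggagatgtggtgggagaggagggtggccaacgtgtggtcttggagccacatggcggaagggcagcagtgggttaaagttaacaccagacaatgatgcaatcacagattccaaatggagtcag
Serpine2 held 6 GC boxes in a window of 78.8% G and C, above the 95th percentile of 73.6% among 32851 promoters. Plaur held 3 GC boxes and the only AP-1 match of the 3 promoters, starting 69 bases before the start. Serpinf1 held neither motif in a window of 51.6% G and C, close to the median of 52.4%, and it held 4 E-boxes, CANNTG, against 1 in Serpine2 and 0 in Plaur. Of all promoters of that length, 6.75% held an AP-1 match, 32.7% a GC box and 66.2% an E-box. None of the 3 held TATAAA, found in 12.4%. These matches are letters in a window and are no evidence of binding.

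Totals ran from 4840993 to 8290468 counts per library, and 8306 to 14159 genes were detected, fewest in irradiated 2 and irradiated 3. TMM factors, which scale for composition, ranged from 0.556 to 0.973 among normal libraries, stood at 0.728 for irradiated 1 and ranged from 1.18 to 1.29 elsewhere. The 12 markers of myoblasts and myotubes were all detected in the normal and cocultured libraries and 10 or 11 of them in the irradiated ones. Their summed level, in CPM (counts relative to the TMM-scaled library size), was 71001 in normal 3, 42785 in irradiated 1 and 3607 to 7229 elsewhere. Of 7 fibroblast markers 5 or 6 were detected per library, led by Dcn and with Tcf21 at 0 in all 9. Endothelial markers summed to 37.3 CPM or less in every library, and markers of Schwann and neural cells to 86.1 CPM or less. Markers of smooth muscle and pericytes summed to 290 CPM in normal 3, 154 in irradiated 1 and 15.6 to 109 elsewhere. Adipocyte markers summed to 98.0 CPM in normal 3 and 0 to 9.54 elsewhere. In bulk RNA, fewer cells of a type and less RNA per cell cannot be told apart.

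None of the 5 members passed the test in any of the 3 comparisons. The test was edgeR's quasi-likelihood test over 11980 genes, called at a Benjamini-Hochberg adjusted p under 0.05. It called 0.0584% of all tested genes between irradiated and normal constructs, 0% between cocultured and normal, and 0.0334% between irradiated and cocultured. At an unadjusted p under 0.05 it listed 0 of the 5 members in each comparison, against 10.3%, 4.11% and 9.58% of all genes. DESeq2 called 0 members as well, with 0 at an unadjusted p under 0.05. limma voom called 0 and put Plaur at an unadjusted p under 0.05 between irradiated and normal constructs, and Plau and Serpine2 between irradiated and cocultured ones. It listed 1690 of 11980 genes so in the first of these comparisons and 1866 in the second. Its median log2 values over all genes were -0.96 and -0.55 there. Groups did not overlap for 1 of the 5 members in each comparison: Plaur, lower, between irradiated and normal constructs, Plau, higher, between cocultured and normal, and Plau, lower, between irradiated and cocultured. These separations are on TMM-scaled values. Over all tested genes the shares without overlap, higher and lower, were 3.94% and 11.8%, 5.66% and 7.51%, and 3.90% and 10.6% in these comparisons. A p that misses the threshold does not show that levels were alike, and the errors below are wide for the 3 genes of low counts.

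**Figure D1:**
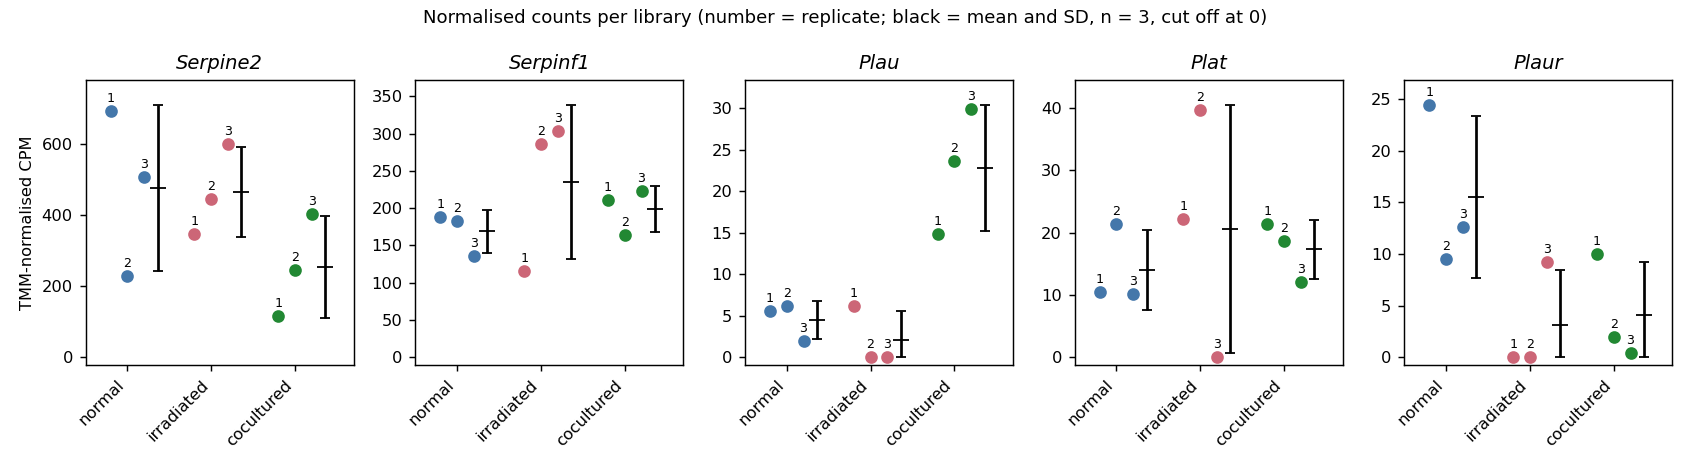
TMM-normalised CPM (vertical axis, linear) of the 5 genes in each of the 9 libraries, by group; points are libraries with their replicate number, black marks are the group mean and SD (n = 3), with bars cut off at 0. Plau in the 3 cocultured libraries, 14.9 to 30.0 CPM, sits above all other libraries, and the zeros of Plau, Plat and Plaur all lie in irradiated libraries.

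Plau, urokinase, was at its highest in the cocultured constructs. It reached 14.9, 23.7 and 30.0 CPM in cocultured 1, 2 and 3, from 139, 229 and 265 counts. In normal 1, 2 and 3 it was at 5.55, 6.14 and 1.92 CPM, from 27, 27 and 7 counts. The cocultured libraries all lay above the normal ones, with means of 22.8 ± 7.56 and 4.53 ± 2.29 CPM (SD, n = 3 each), a ratio of means of 5.04. The same groups were apart in the share of counts taken by the noncoding RNA Gm26917, at 23.9%, 27.4% and 9.47% in normal 1, 2 and 3 and 3.38% to 3.91% in the cocultured libraries. Mitochondrial genes took 5.76%, 6.99% and 29.7% in normal 1, 2 and 3 and 10.8% to 12.5% in the cocultured libraries. With both removed from the table the log2 fold change was 2.33, and without normal 3 it was 1.96. Groups that did not overlap, with cocultured higher, were found for 5.66% of all tested genes. With all genes kept the log2 fold change was 2.33 ± 2.34 (SE), and Plau did not pass (edgeR adjusted p = 1, unadjusted p = 0.337). The standard error rests on a spread shared among the libraries of all 3 groups. As a separate description, the biological coefficient of variation estimated for Plau was 1.68, near the trend for genes of its level, 1.80. In a fit of the normal and cocultured libraries alone the log2 value was 2.32 ± 1.15 (edgeR unadjusted p = 0.0705, adjusted p = 0.999).

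In irradiated constructs themselves Plau was found in 1 library of 3. Irradiated 1 held 29 counts, or 6.18 CPM, much as in the normal libraries. Irradiated 2 and irradiated 3 held 0, which by counting error alone allows up to 0.282 and 0.352 CPM at 3 counts each. Spread between constructs and copied reads are not in these limits. The irradiated mean of 2.06 ± 3.57 CPM gave a log2 value of -1.15 ± 2.26 against normal constructs (edgeR adjusted p = 1). Without the pair irradiated 2 and irradiated 3 this value was 0.44, and without irradiated 1 it was -8.09, a fitted value that is no bound. Against cocultured constructs it was -3.48 ± 2.45 (edgeR adjusted p = 0.759), and all 3 irradiated libraries lay below all 3 cocultured ones, as in 10.6% of tested genes. This value was -10.42 without irradiated 1 (edgeR unadjusted p = 0.0048, adjusted p = 0.169), again with no irradiated count left and no bound, and -1.89 without irradiated 2 and irradiated 3. With limma voom it was -6.35 (unadjusted p = 0.0025, adjusted p = 0.0980), and with the replicate block -6.16. The medians of all genes were then -0.55 and -0.32. Of 2545 genes within 1.5 times the level of Plau in the non-irradiated libraries, 40.9% were at 0 in irradiated 2 and 35.8% in irradiated 3. In irradiated 1 and the other 6 libraries the share was 1.34% to 16.5%. The part of this loss of low genes in the Plau zeros was not tested. By mean, Plau was ordered cocultured, normal, irradiated, and the normal and irradiated groups overlapped.

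Plat, the tissue-type activator, had groups that overlapped in all 3 comparisons. Normal libraries held 10.5, 21.4 and 10.1 CPM, cocultured libraries 21.3, 18.6 and 12.1 CPM, and irradiated libraries 22.1, 39.7 and 0 CPM. Irradiated 2 was the highest of all 9 libraries with 422 counts, and irradiated 3 the only one without a count, which by counting error alone allows up to 0.352 CPM. The means were 20.6 ± 19.9 CPM in irradiated, 17.3 ± 4.74 in cocultured and 14.0 ± 6.39 in normal constructs (SD, n = 3 each), and no neighbouring groups in that order were apart. Against normal constructs the log2 values were 0.56 ± 1.68 for irradiated and 0.31 ± 1.68 for cocultured (edgeR adjusted p = 1 for both). The first turned to -0.35 without irradiated 2. Between irradiated and cocultured constructs it was 0.25 ± 1.68 (edgeR adjusted p = 1), and -0.66 without irradiated 2. In irradiated 3, 34.6% of 2576 genes of like level were at 0, and the part of this in the Plat zero was not tested.

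**Figure D2:**
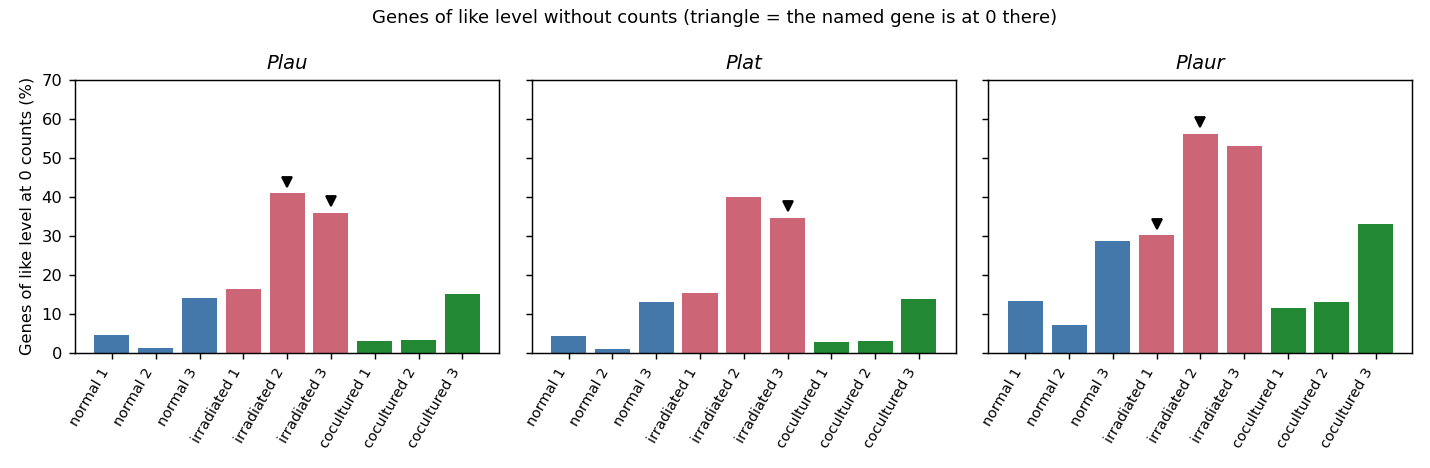
Share (%) of genes within 1.5 times the level of Plau, Plat or Plaur, taken over the 6 non-irradiated libraries, that had 0 counts in each library (bars); triangles mark libraries in which the named gene itself was at 0. For Plau the share was 40.9% and 35.8% in irradiated 2 and irradiated 3 and at most 16.5% elsewhere. The choice of genes holds zeros down in the 6 non-irradiated libraries. The level is a mean over these libraries, and for Plau the cocultured ones raise it above the normal level.

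The balance of the 2 activators, a ratio within each library that no scaling can change, tilted most to Plau in the cocultured libraries. Of the counts that Plau and Plat took together, Plau held 41.1% in cocultured 1 (exact 95% interval 35.8% to 46.6%), 56.0% in cocultured 2 (51.0% to 60.9%) and 71.2% in cocultured 3 (66.3% to 75.8%). In normal 1, 2 and 3 it held 34.6% (24.2% to 46.2%), 22.3% (15.2% to 30.8%) and 15.9% (6.64% to 30.1%). All 3 cocultured shares were above all 3 normal ones, though the intervals of cocultured 1 and normal 1 overlapped. Irradiated 1 held 21.8% (15.1% to 29.8%), irradiated 2 held 0 of 422, which by counting error alone allows up to 0.870%, and irradiated 3 had neither transcript. The shares are a description and reuse Plau, itself apart between cocultured and normal libraries. The intervals cover counting error only and treat each read as independent, though reads without molecular identifiers can be copies of 1 molecule. Counts from 3′ ends are also not corrected for how well each transcript's end was captured, so a share is comparable between libraries and not between the 2 genes.

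**Figure D3:**
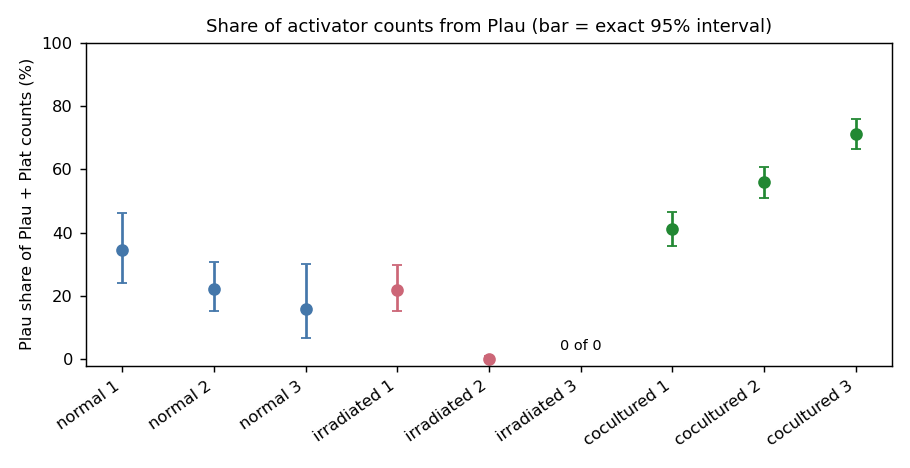
Plau as a percentage of the summed Plau and Plat counts in each of the 9 libraries, with exact 95% binomial intervals for counting error; irradiated 3 had 0 counts of both. Cocultured libraries lie at 41.1% to 71.2% and normal libraries at 15.9% to 34.6%.

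Plaur, the urokinase receptor, was highest in normal constructs. It was at 24.4, 9.54 and 12.6 CPM in normal 1, 2 and 3, at 0, 0 and 9.27 CPM in irradiated 1, 2 and 3, and at 9.96, 1.96 and 0.452 CPM in cocultured 1, 2 and 3. Irradiated libraries all lay below the normal ones, as in 11.8% of all tested genes, with irradiated 3 just under normal 2. Relative to library totals irradiated 3 was at 11.5 CPM, above normal 2 (8.68) and normal 3 (6.96), so this separation holds with TMM scaling and not with totals. Cocultured 1 lay within the normal range, while cocultured 3 held 4 counts and cocultured 2 held 19. The means were 15.5 ± 7.87, 4.13 ± 5.11 and 3.09 ± 5.35 CPM in normal, cocultured and irradiated constructs (SD, n = 3 each), and the last 2 groups overlapped. The log2 values were -2.32 ± 2.61 for irradiated and -1.91 ± 2.57 for cocultured against normal constructs, both edgeR adjusted p = 1. The first was -9.77 without irradiated 3, the library that held all irradiated counts, and that fitted value is no bound. It was -5.37 with limma voom (unadjusted p = 0.0242, adjusted p = 0.261), beside a median of -0.96 over all genes. The second was -3.66 without cocultured 1. Between irradiated and cocultured constructs it was -0.41 ± 2.48 (edgeR adjusted p = 1).

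By counting error alone the zeros of Plaur allow up to 0.639 CPM in irradiated 1 and 0.282 CPM in irradiated 2. Among 2300 genes of like level, 30.1% were at 0 in irradiated 1, 56.2% in irradiated 2 and 53.0% in irradiated 3, against 7.22% to 33.0% in the non-irradiated libraries. The genes were chosen by their level in the latter, which holds zeros down there. Plaur is also a gene of myeloid cells. The summed level of 8 markers of macrophages and other blood cells was 107 to 460 CPM in normal, 1.41 to 38.1 in irradiated and 17.0 to 169 in cocultured libraries, with 1 to 4 of the 8 detected. Cd14 led it in 8 of the 9 libraries. The pan-leukocyte gene Ptprc had 1 count in all 9 libraries together, and the macrophage gene Adgre1 was at 0 in 8 of them. The part of these markers in the Plaur values was not tested. Receptor and ligand stood in different proportions: the ratio of Plaur to Plau counts was 0.669, 0.0830 and 0.0151 in cocultured 1, 2 and 3 and 4.41, 1.56 and 6.57 in normal 1, 2 and 3, with no overlap. It was 0 in irradiated 1 and could not be formed in irradiated 2 and irradiated 3, where Plau was at 0. Plau itself was apart between cocultured and normal libraries, and this ratio is not independent of that.

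Serpine2, protease nexin-1, was well counted in all 9 libraries and lowest on average in cocultured constructs. It stood at 694, 228 and 507 CPM in normal 1, 2 and 3, at 348, 447 and 600 CPM in irradiated 1, 2 and 3, and at 116, 247 and 402 CPM in cocultured 1, 2 and 3. The irradiated libraries lay inside the wider normal range, and cocultured 1 was the lowest of all. The means were 476 ± 234, 465 ± 127 and 255 ± 143 CPM (SD, n = 3 each), and every pair of groups overlapped. The log2 value of cocultured against normal constructs was -0.90 ± 0.48 (edgeR unadjusted p = 0.0838, adjusted p = 1). It was -0.49 without normal 1, -0.55 without cocultured 1 and -1.39 without cocultured 3 (edgeR unadjusted p = 0.0208, adjusted p = 1 for the last), and -1.23 without normal 2 (edgeR unadjusted p = 0.0215, adjusted p = 1). That of irradiated against cocultured was 0.87 ± 0.48 (edgeR unadjusted p = 0.0949, adjusted p = 0.556), with 0.52 without cocultured 1 and 1.36 without cocultured 3. For irradiated against normal it was -0.035 ± 0.48 (edgeR adjusted p = 1), a direction that other scalings turned, to 0.44 with library totals. Library totals moved the median of all genes from -0.21 to 0.14 in this comparison and from -0.07 to 0.48 in cocultured against normal. The value for Serpine2 in the latter was then -0.35.

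Serpinf1, pigment epithelium-derived factor, was split among irradiated constructs, and its normal and cocultured values overlapped with TMM scaling. It was at 188, 183 and 135 CPM in normal 1, 2 and 3 and at 211, 164 and 222 CPM in cocultured 1, 2 and 3. Irradiated 2 and irradiated 3 held 286 and 303 CPM, above every other library, and irradiated 1 held 116 CPM, below every other. The means were 235 ± 104 CPM in irradiated, 199 ± 30.8 in cocultured and 169 ± 29.3 in normal constructs (SD, n = 3 each). Against normal the log2 values were 0.48 ± 0.39 for irradiated (edgeR adjusted p = 0.959) and 0.24 ± 0.38 for cocultured (edgeR adjusted p = 1). Relative to library totals Serpinf1 stood at 182, 166 and 74.8 CPM in normal 1, 2 and 3 and at 253, 198 and 262 CPM in cocultured 1, 2 and 3, without overlap, and the second value was 0.75 (edgeR adjusted p = 1). Over all genes the median with library totals was 0.48 in that comparison. The share of genes without overlap was not computed for library totals. Without normal 3 the second was 0.10, without cocultured 2 it was 0.36 and without cocultured 3 it was 0.15. With library totals the first was 0.96, beside a median of 0.14 over all genes. With TMM scaling the first became 0.80 without irradiated 1 (edgeR unadjusted p = 0.0373, adjusted p = 0.345) and -0.55 without irradiated 2 and irradiated 3. Irradiated against cocultured it was 0.24 ± 0.38 (edgeR adjusted p = 1), and -0.79 without irradiated 2 and irradiated 3. It was 0.56 without irradiated 1, 0.12 without cocultured 2, 0.070 without irradiated 2 and 0.011 without irradiated 3. Irradiated 1 and normal 3, the libraries with the highest summed muscle markers, held the lowest Serpinf1 values of all 9, and the part of composition in them was not tested.

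The 2 serpins differed in their balance. The ratio of Serpinf1 to Serpine2 counts, free of scaling, was 0.271, 0.801 and 0.267 in normal 1, 2 and 3, 0.333, 0.640 and 0.505 in irradiated and 1.82, 0.666 and 0.553 in cocultured libraries. The 3 groups overlapped, and cocultured 1 alone had more counts of Serpinf1 than of Serpine2. Set against the activator, the ratio of Plau to Serpine2 counts was 0.128, 0.0959 and 0.0744 in the cocultured libraries and 0.00799, 0.0269 and 0.00378 in the normal ones, without overlap. It was 0.0178 in irradiated 1 and 0 in the other 2. Ratios of Plat to Serpine2 overlapped, at 0.0301 to 0.184 in cocultured and 0.0151 to 0.0935 in normal libraries. The Plau share, Plaur to Plau and Plau to Serpine2 all reuse Plau, itself apart between cocultured and normal libraries. They are therefore not separate results. The share of other gene pairs without overlap was not computed.

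**Figure D4:**
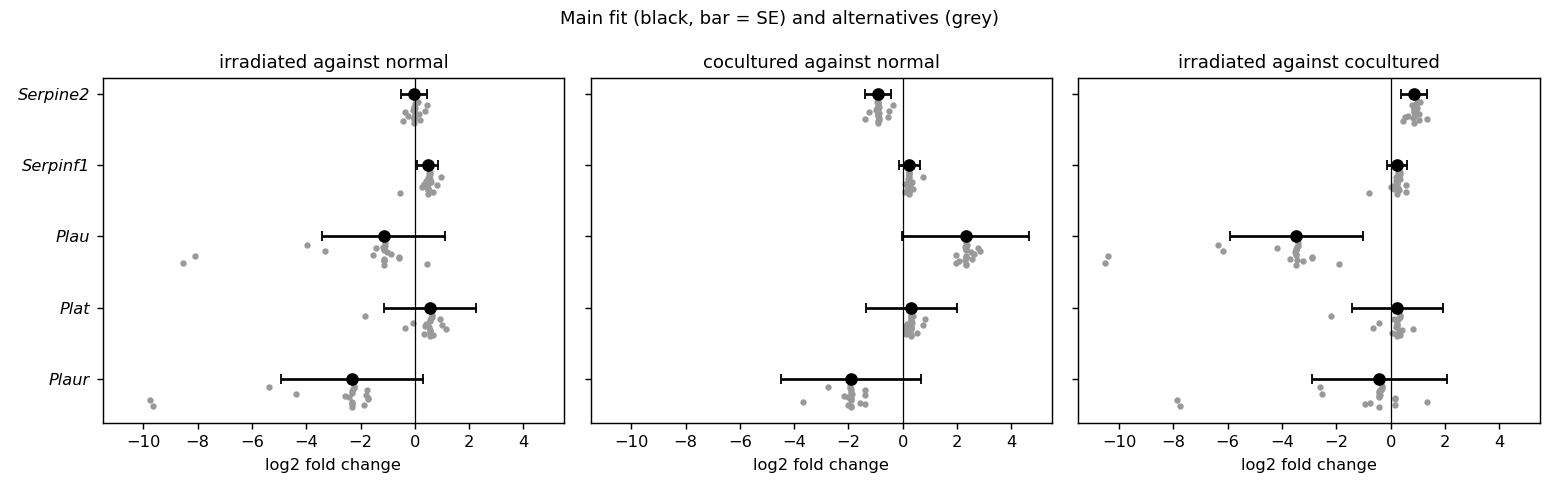
Log2 fold changes (horizontal axis) of the 5 genes in the 3 comparisons; black points with bars are the values and SE reported here, grey points the same gene under the alternative settings. Plau in cocultured against normal constructs stays between 1.96 and 2.85, while Serpine2 in irradiated against normal lies on both sides of 0.

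Other genes of the plasminogen system were mostly receptors and clearance proteins at these levels. Of 22 listed genes 11 were tested and 0 passed in any comparison by edgeR. Their median log2 values were -0.44 for irradiated against normal, -0.0048 for cocultured against normal and -0.55 for irradiated against cocultured, beside -0.21, -0.07 and -0.10 over all genes. Plg, plasminogen itself, had 21 counts in normal 3 and none in the other libraries, and F12 and Serpina5 had no count in any. Lrp1, the endocytic receptor that clears complexes of activators with serpins, averaged 905 ± 76.8, 744 ± 171 and 849 ± 77.2 CPM in normal, irradiated and cocultured constructs (SD, n = 3 each). Anxa2 and S100a10, which form a cell-surface complex that binds plasminogen, had means of 681, 501 and 734 CPM and of 174, 246 and 236 CPM in normal, irradiated and cocultured constructs. Igf2r, a receptor that also binds the urokinase receptor, averaged 113, 87.1 and 111 CPM in the same order.

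At an unadjusted p under 0.05 this list held 0 genes between cocultured and normal constructs and 1 between irradiated and cocultured, named here because of its value. Over all tested genes these shares were 4.11% and 9.58%. Lrpap1, a chaperone of Lrp1, averaged 111 ± 58.8 CPM in irradiated and 37.5 ± 16.2 in cocultured constructs (log2 1.57 ± 0.57, edgeR unadjusted p = 0.0160, adjusted p = 0.493).

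Of 63 other serpins in the files, 28 had no count and 18 were tested. None passed by edgeR. Median log2 values were 0.04, 0.19 and -0.16 in the 3 comparisons, in the order above. Serping1, the inhibitor of complement C1 and of plasma kallikrein, was at 1440, 739 and 991 CPM in normal 1, 2 and 3 and at 177, 346 and 193 CPM in irradiated 1, 2 and 3. The irradiated libraries lay below all others, with a log2 value of -2.15 ± 0.43 against normal (edgeR adjusted p = 0.109) and -1.58 ± 0.43 against cocultured (edgeR adjusted p = 0.366). They lay below the normal libraries in 11.8% of all tested genes and below the cocultured ones in 10.6%. Serping1 was at an unadjusted p under 0.05 in both of these comparisons, and 0 genes of the list were between cocultured and normal. Over all tested genes these shares were 10.3%, 9.58% and 4.11% in that order. Serpinh1, the collagen chaperone, averaged 193 ± 87.9, 178 ± 25.0 and 215 ± 14.9 CPM in normal, irradiated and cocultured constructs (SD, n = 3 each). Serpinb6a averaged 378, 257 and 429 CPM and Serpina3n 41.0, 68.9 and 128 CPM. The last 2 belong to families of near-identical copies, so their counts are uncertain.

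Surface and clotting proteases with their inhibitors gave a similar picture. Of 22 genes 7 had no count, 11 were tested, and 0 passed by edgeR, with median log2 values of -0.25, -0.12 and -0.03. Thbd, thrombomodulin, the receptor that turns thrombin towards activation of protein C, averaged 188 ± 94.5, 39.2 ± 41.4 and 106 ± 33.5 CPM in normal, irradiated and cocultured constructs (log2 -2.26 ± 0.67 for irradiated against normal, edgeR unadjusted p = 0.00515, adjusted p = 0.350). Its partner Procr, the protein C receptor, named for its values, had 111, 1 and 3 counts in normal 1, 2 and 3, none in any irradiated library and 94, 138 and 535 in cocultured 1, 2 and 3. Thbd and Procr were the 2 genes at an unadjusted p under 0.05 between irradiated and normal constructs and between irradiated and cocultured ones, and there were 0 between cocultured and normal. Over all tested genes these shares were 10.3%, 9.58% and 4.11% in that order. Prss23, a secreted serine protease, was at 105, 94.3 and 143 CPM in cocultured 1, 2 and 3, above every normal and irradiated library, with a log2 value of 0.88 ± 0.59 against normal (edgeR adjusted p = 1). Cocultured libraries lay above the normal ones in 5.66% of all tested genes and above the irradiated ones in 10.6%. The thrombin receptor F2r averaged 84.1, 70.8 and 98.0 CPM and the secreted protease Htra1 126, 95.7 and 97.8 CPM in normal, irradiated and cocultured constructs.

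Substrates of plasmin and urokinase went in both directions. Of 20 listed genes 16 were tested, 0 passed by edgeR, and median log2 values were -0.54, -0.18 and -0.14. The unadjusted p was under 0.05 for 2 higher and 5 lower genes between irradiated and normal constructs, 2 lower between cocultured and normal, and 1 higher and 2 lower between irradiated and cocultured. Over all tested genes these shares were 10.3%, 4.11% and 9.58%. Hgf, the growth factor that urokinase can activate, was at 571, 808 and 805 CPM in irradiated 1, 2 and 3 and at 266, 387 and 300 CPM in normal 1, 2 and 3 (log2 1.20 ± 0.33, edgeR adjusted p = 0.276). Mmp2, a gelatinase, averaged 1892 ± 538 CPM after irradiation, above the normal mean of 1105 ± 189 CPM, and the groups did not overlap (log2 0.78 ± 0.32, edgeR adjusted p = 0.483). Mmp14, its membrane-bound activator, averaged 1281, 1609 and 1045 CPM and Fn1, fibronectin, 1325, 1041 and 1632 CPM in normal, irradiated and cocultured constructs. Mmp3, stromelysin-1, named for its values, averaged 250 ± 90.5, 95.6 ± 53.5 and 101 ± 17.5 CPM in normal, irradiated and cocultured constructs. Both groups lay below the normal libraries, with log2 values of -1.38 ± 0.44 (edgeR adjusted p = 0.398) and -1.31 ± 0.44 (edgeR adjusted p = 1). The 2 comparisons share the normal libraries. Thbs1, also named for its values, had log2 values of -2.14 ± 0.71 and -1.68 ± 0.70 in them, with groups that overlapped. Vegfa, named likewise, had -1.30 ± 0.41 for irradiated against normal (edgeR adjusted p = 0.389), without overlap. The other lower genes of that comparison, Fgb and Mmp10, averaged 22.7 and 8.86 CPM in normal and 0.0710 and 0 CPM in irradiated constructs. Each of these normal means rested mostly on 1 library. In normal 1, 2 and 3 Fgb was at 0.411, 0.909 and 66.8 CPM and Mmp10 at 21.2, 2.95 and 2.46 CPM. Over all tested genes, irradiated libraries lay above the normal ones without overlap in 3.94% and below them in 11.8%. Cocultured libraries lay below the normal ones in 7.51%.

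All 16 listed transcription factors with known roles at activator genes were tested and 0 passed by edgeR, with medians of -0.48, -0.09 and -0.43. Jun, a subunit of AP-1, was at 335, 328 and 327 CPM in normal 1, 2 and 3, at 97.7, 104 and 152 CPM in irradiated 1, 2 and 3, and at 228, 232 and 168 CPM in cocultured 1, 2 and 3. The 3 groups did not overlap, with log2 values of -1.48 ± 0.32 for irradiated (edgeR adjusted p = 0.135) and -0.65 ± 0.31 for cocultured against normal (edgeR adjusted p = 1). Over all tested genes, irradiated libraries lay below the normal ones in 11.8% and below the cocultured ones in 10.6%. Cocultured libraries lay below the normal ones in 7.51%. The share of genes with all 3 groups apart was not computed. Fosl2, another AP-1 subunit, averaged 223 ± 30.7, 108 ± 39.2 and 211 ± 5.73 CPM in normal, irradiated and cocultured constructs (log2 -1.05 ± 0.35 for irradiated against normal, edgeR adjusted p = 0.451). Junb averaged 534, 398 and 486 CPM and Egr1 163, 216 and 263 CPM in the same order. An unadjusted p under 0.05 was found for 3 genes, all lower, between irradiated and normal constructs (Jun, Fosl2 and Klf4), for Jun and Fosl2, also lower, between irradiated and cocultured, and for 0 between cocultured and normal. The shares over all tested genes were 10.3%, 9.58% and 4.11% in that order.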

How the data were processed

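The deposited values are read counts per gene symbol, 1 file per library, not normalised, per the file headers and the values. Per the labels' protocols, 100 ng of total RNA went into QuantSeq 3′ FWD libraries read as single-end 75 bp reads. Per the submitters' processing notes, the tools named are STAR, HTSeq and FastQC and the build GRCm39 (mm39), with no version or order. For annotation, strand setting and duplicates, details were not given in the sources used here. Overlapping genes and near-identical copies may therefore share reads. Column names carry numbers 1 higher than the labels, and samples follow the series' record of files. RefSeq promoters are of GRCm38.p6, so no coordinate was joined to the counts.

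Samples were grouped by their titles. The members and gene lists were chosen with earlier results of these data known. Pairs of libraries within a group had a chi-square of 35.4 to 297 per gene, far from repeat sequencing of 1 library, so all 9 count. Counts were filtered with filterByExpr (11980 of 40879 symbols), scaled by TMM and fitted with edgeR 4.0.16 in R 4.3.3 as 1 quasi-likelihood model of group over all 9 libraries; SE is the log2 fold change over the square root of F. The common biological coefficient of variation was 1.32. An upper limit for a zero is 3 counts, which covers counting error of independent reads only and not spread between constructs or copied reads. On simulated data for irradiated against normal constructs (10968 genes, 50 changed per size, estimated dispersion) the test recovered 0% of 2-fold and 8% of 4-fold changes, rising to 20% (8-fold) and 40% (16-fold). Named genes are the 5 members, the 4 tested genes of highest mean level in each list, any called gene, and for each member the 2 genes most like it; others are said to be named for their values. Alternatives were DESeq2 1.42.0, limma voom (limma 3.58.1), other scalings and filters, subsets of libraries and a replicate block. A listed gene enters their counts and medians but is not reported here.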

Additional observations from a re-analysis of the deposited data

How the results depend on the processing

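No member was called in any comparison under any of the 21 other settings run, and of 306 recomputed log2 values of members 283 kept their direction. For Serpine2 in irradiated against normal constructs the sign turned with DESeq2 (0.036), limma voom (0.12), DESeq2-style size factors in edgeR (0.036), upper quartile factors (0.0093), library totals (0.44), a mean of at least 50 CPM (0.020) and without both normal 3 and irradiated 1 (0.19). It ran from -0.37 to 0.38 as single libraries were left out. Plat turned with limma voom, to -1.84 against normal and -2.20 against cocultured constructs, beside medians of -0.96 and -0.55 over all genes. In these comparisons Plat ran from -0.35 to 1.14 and from -0.66 to 0.83 as single libraries were left out. Plaur in irradiated against cocultured constructs was 0.16 without both normal 3 and irradiated 1, and ran from -7.86 to 1.34 as single libraries were left out. Without both irradiated 2 and irradiated 3, which leaves 1 irradiated library assumed to vary like the other groups, Plau was 0.44 and Serpinf1 -0.55 against normal, and Serpinf1 -0.79 against cocultured. Plat, Plau and Plaur average under 50 CPM and had no value at that filter.

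The replicate block, a term for the replicate number, moved Plat to -0.065 against normal and -0.42 against cocultured constructs and called 23 genes in place of 7 for irradiated against normal, 12 in place of 4 for irradiated against cocultured and 0 for cocultured against normal. Deviations of same-numbered libraries correlated at -0.07 to 0.05, so the numbers were not taken to pair libraries.

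Counts of called genes depended on the setting, and the cause was not tested. For irradiated against normal constructs (7) there were 445 with DESeq2, 25 with limma voom, 130 without a filter, 24 at a mean of at least 50 CPM, 0 with the 6 libraries alone, 20 without both normal 3 and irradiated 1, 190 without both irradiated 2 and irradiated 3, and 6 to 147 as single libraries were left out (147 without irradiated 1). For cocultured against normal (0) the counts were 84 with DESeq2, 52 without a filter, 1 without both normal 3 and irradiated 1, 96 without both irradiated 2 and irradiated 3, and 0 in each other setting. For irradiated against cocultured (4) they were 473 with DESeq2, 105 with limma voom, 9 with library totals, 153 without a filter, 2 at a mean of at least 50 CPM, 0 with the 6 libraries alone, 21 and 449 without these same pairs, and 1 to 97 as single libraries were left out (97 without irradiated 1).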

Other observations

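For each member the 2 genes with the most similar pattern were looked up among 4854 genes with a mean over the 9 libraries of at least 20 normalised CPM and at least 1 count in each library, by Pearson's r of log2 CPM over the 9 libraries. With so many candidates and 9 points, high values of r are a description only. Plau was most like Pals1 (r = 0.97) and Qki (0.96). Pals1, a scaffold protein of cell polarity, was at 96.6, 87.4 and 119 CPM in cocultured 1, 2 and 3, at 52.3 to 56.7 CPM in the normal libraries, and at 68.6, 15.0 and 11.6 CPM in irradiated 1, 2 and 3. Qki, an RNA-binding protein, was at 214, 249 and 253 CPM in the cocultured libraries and at 100.0 to 171 CPM in the other 6. Plat was most like Rab1b (0.98) and Jak2 (0.98), Plaur like Zfp644 (0.90) and Ddx42 (0.89), Serpine2 like Plekha3 (0.97) and Mrpl37 (0.91), and Serpinf1 like Fgf10 (0.94) and Jag1 (0.94). Rab1b, a GTPase of vesicle transport, was, like Plat, at its lowest in irradiated 3, with 0.939 CPM, where Jak2 held 0.117 CPM. Jag1, a Notch ligand, was at 44.5 and 64.4 CPM in irradiated 2 and irradiated 3, 1.06 CPM in irradiated 1 and 7.66 to 25.5 CPM in the other 6 libraries. Among the members themselves r ran from -0.52 for Serpine2 and Plau to 0.45 for Plau and Plat.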
